A study of Mus musculus with 14 samples.

Results

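The natriuretic peptide system was followed through 7 genes: the ligand genes Nppa and Nppb, the receptor genes Npr1, Npr2 and Npr3, and the genes of the processing enzymes Corin and Furin. The members were all probe sets (groups of short oligonucleotides on the array that read 1 transcript) annotated to exactly 1 of these symbols, which gave 9 of the 45037 probe sets other than controls. Of these 9 probe sets, 8 exceeded the median of the whole table (5.75 on the log2 scale) on at least 3 arrays, as did 24525 of the 45037. Npr3 had 3 probe sets, each other member had 1, and the single Npr1 probe set lay below that level on all 14 arrays.

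Cardiac muscle stores atrial natriuretic peptide (ANP, from Nppa) and releases brain natriuretic peptide (BNP, from Nppb) when the chamber wall is stretched, and Nppb and Nppa transcripts in the ventricle are standard marks of haemodynamic load. Both propeptides are cut to the active hormones by the serine protease corin and the convertase furin. The hormones act through Npr1, a membrane receptor that makes cyclic GMP, whereas Npr2 is the related receptor of C-type natriuretic peptide and Npr3 binds and clears all of these peptides.

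The study took total RNA from the left ventricle of male C57BL/6 mice that were wild type or lacked Hsp22, the small heat shock protein encoded by Hspb8, and hybridised it to Affymetrix mouse expression arrays. Mice of each genotype were sampled in the basal state, with no pressure overload (3 arrays each), or after 3 days of pressure overload by TAC surgery, the banding of the aorta (4 arrays each). Below, before TAC means on the basal arrays, which are samples other than those taken after TAC. The labels name no sham-operated group and do not say whether the deletion was confined to any cell type. They also do not say that each array is a separate animal, so the p-values below measure the spread between these samples. The file names in the labels differ in date and style between basal and TAC arrays, so array run and surgery cannot be told apart in any comparison of TAC with basal. Basal knockout array 3 carries a date of its own.

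Values were the deposited RMA values on the log2 scale, in which a step of 1 is a doubling. The Hspb8 probe set 1417013_at read 11.09 to 12.29 on the wild-type arrays and 4.27 to 5.13 on the knockout arrays, and 1417014_at read 10.26 to 11.64 and 5.10 to 5.92. The third Hspb8 probe set, 1456434_x_at, read 8.20 to 8.84 on the knockout arrays and differed between genotypes by -1.08 before and -0.60 after TAC (adjusted p = 0.196 and 0.274 by limma), so it was not called. All 10 ventricular cardiomyocyte markers were above the filter, none of them passed the test in any comparison, and their mean stayed between 13.07 and 13.54 on the 14 arrays. Atrial markers were present too: 9 of 11 were above the filter, with list means on the arrays of 9.98 to 10.29 (basal wild type), 7.91 to 10.67 (basal knockout), 6.40 to 9.05 (TAC, wild type) and 6.49 to 8.42 (TAC, knockout). In such bulk samples fewer cells of a type and less RNA per cell cannot be told apart. The TAC wild-type arrays were the least alike, with mean correlations with their own group of 0.955, 0.969, 0.948 and 0.969, where all other arrays had 0.976 or more. After TAC, limma called 26.7% of all 12260 genes above the filter higher and 23.5% lower in wild type, and 22.4% and 21.3% in the knockout. Of 10 macrophage markers, 9 were higher in wild type and 8 in the knockout. Their list means after TAC were 8.87 to 10.72 (the highest on TAC wild-type array 3) and 9.92 to 10.15. On the basal arrays they were 7.85 to 8.17 and 8.41 to 8.55. Of 10 fibroblast markers 6 were higher and 3 lower in wild type, and 6 were higher and 0 lower in the knockout, with list means of 11.03 to 11.45 and 11.74 to 11.90 against 10.25 to 10.72 and 10.84 to 11.05. The part of these cells in the differences after TAC given below was not tested.

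Nppb and Nppa lie next to each other on chromosome 4, on the same strand, with 13.5 kb and no protein-coding gene between them in the RefSeq annotation. Their proximal promoters are printed because some of the factors described further on, namely GATA factors, TEAD factors and Nkx2-5, bind such elements. Each line gives the 250 bases before the annotated start from RefSeq (build GRCm38.p6, plus strand, chr4:147985650-147985899 for Nppb and chr4:148000472-148000721 for Nppa), with matches in capitals. The motifs marked, on either strand, were GATA (the core bound by GATA factors) and GGAATG (the M-CAT element bound by TEAD factors). AAGTG (the core bound by Nkx2-5) and TATAAA (the TATA box) were marked too.
Nppb: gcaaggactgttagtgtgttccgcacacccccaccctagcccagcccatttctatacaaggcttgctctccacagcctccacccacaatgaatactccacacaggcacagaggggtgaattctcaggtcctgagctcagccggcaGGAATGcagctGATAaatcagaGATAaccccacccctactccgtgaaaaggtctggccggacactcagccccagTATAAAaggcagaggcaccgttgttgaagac
Nppa: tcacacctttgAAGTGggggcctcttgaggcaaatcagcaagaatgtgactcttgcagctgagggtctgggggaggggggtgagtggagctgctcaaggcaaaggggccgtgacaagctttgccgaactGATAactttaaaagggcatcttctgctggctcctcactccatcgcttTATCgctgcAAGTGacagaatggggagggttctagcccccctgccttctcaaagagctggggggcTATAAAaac
The Nppb window held 2 GATA matches, at -94 to -91 and -83 to -80 counted from the start, a M-CAT match at -105 to -100 and a TATA box at -31 to -26. The Nppa window held 2 GATA matches, at -121 to -118 and, on the minus strand, -74 to -71, with AAGTG at -239 to -235 and -65 to -61 and TATAAA at -9 to -4. No matches overlapped. Of 32851 RefSeq promoters of the same length, 24.2% held 2 or more GATA matches, 12.6% held M-CAT, 40.7% held AAGTG at least once and 10.2% held 2 or more, and 12.4% held TATAAA. The RefSeq gene record of Nppb begins upstream of the start used here. The last part of the Nppb window, with all the matches marked in it, therefore lies within the record.

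Nppb was the member that responded most clearly. The 3 basal wild-type arrays read 12.45, 12.25 and 12.25 and the 4 TAC wild-type arrays 13.83, 14.24, 14.20 and 14.41. In the knockout the basal arrays read 13.03, 12.76 and 12.99 and the TAC arrays 14.13, 14.02, 14.22 and 14.32. Every TAC array was above every basal array, in both genotypes, a lack of overlap shared by 49.6% of all probe sets in wild type and 52.4% in the knockout. The 3 basal knockout arrays were all above the 3 basal wild-type arrays.

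After TAC, Nppb rose by 1.85 on the log2 scale (SE 0.14), or 3.61-fold (95% confidence interval 2.95 to 4.43), in wild type, with an adjusted p of 1.06e-05 by limma. In the knockout it rose by 1.25 (SE 0.14), or 2.37-fold, with an adjusted p of 8.55e-05 by limma. Both calls held in all 25 other settings tried (other scalings, filters and fits, and each array left out). Only 3 other probe sets of the 24525 had a smaller p in wild type, although 50.2% of all probe sets passed the adjusted threshold of 0.05 there and 43.2% did in the knockout. The highest value on each array, over all probe sets, was 14.64 to 14.81, so the TAC values of Nppb and the values of Nppa lay close to the top of the scale.

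In the basal state Nppb was higher in the knockout, with means of 12.93 ± 0.15 (SD, n = 3) against 12.32 ± 0.12 (SD, n = 3). The difference of 0.61 (SE 0.15, 95% interval 0.30 to 0.92) had an unadjusted p of 0.000939 in limma and an adjusted p of 0.64, so it did not pass over all probe sets. It stayed between 0.56 and 0.69 in those 25 settings, and its adjusted p was 0.243 or more in all of them. Groups that did not overlap were found for 13.0% of probe sets in this comparison, and 0.00815% were called (2 probe sets, both of Hspb8). After TAC both genotypes had a mean of 14.17, with a difference of 0.00 and a 95% interval of -0.27 to 0.27. The test of whether the response differed between genotypes gave -0.61 (SE 0.19), with an unadjusted p of 0.00714 and an adjusted p of 0.485 by limma. On the same basal arrays the means of the macrophage and fibroblast markers given above did not overlap between genotypes either and were higher in the knockout, with no marker of either list called. Their part in the Nppb difference was not tested.

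**Figure D1:**
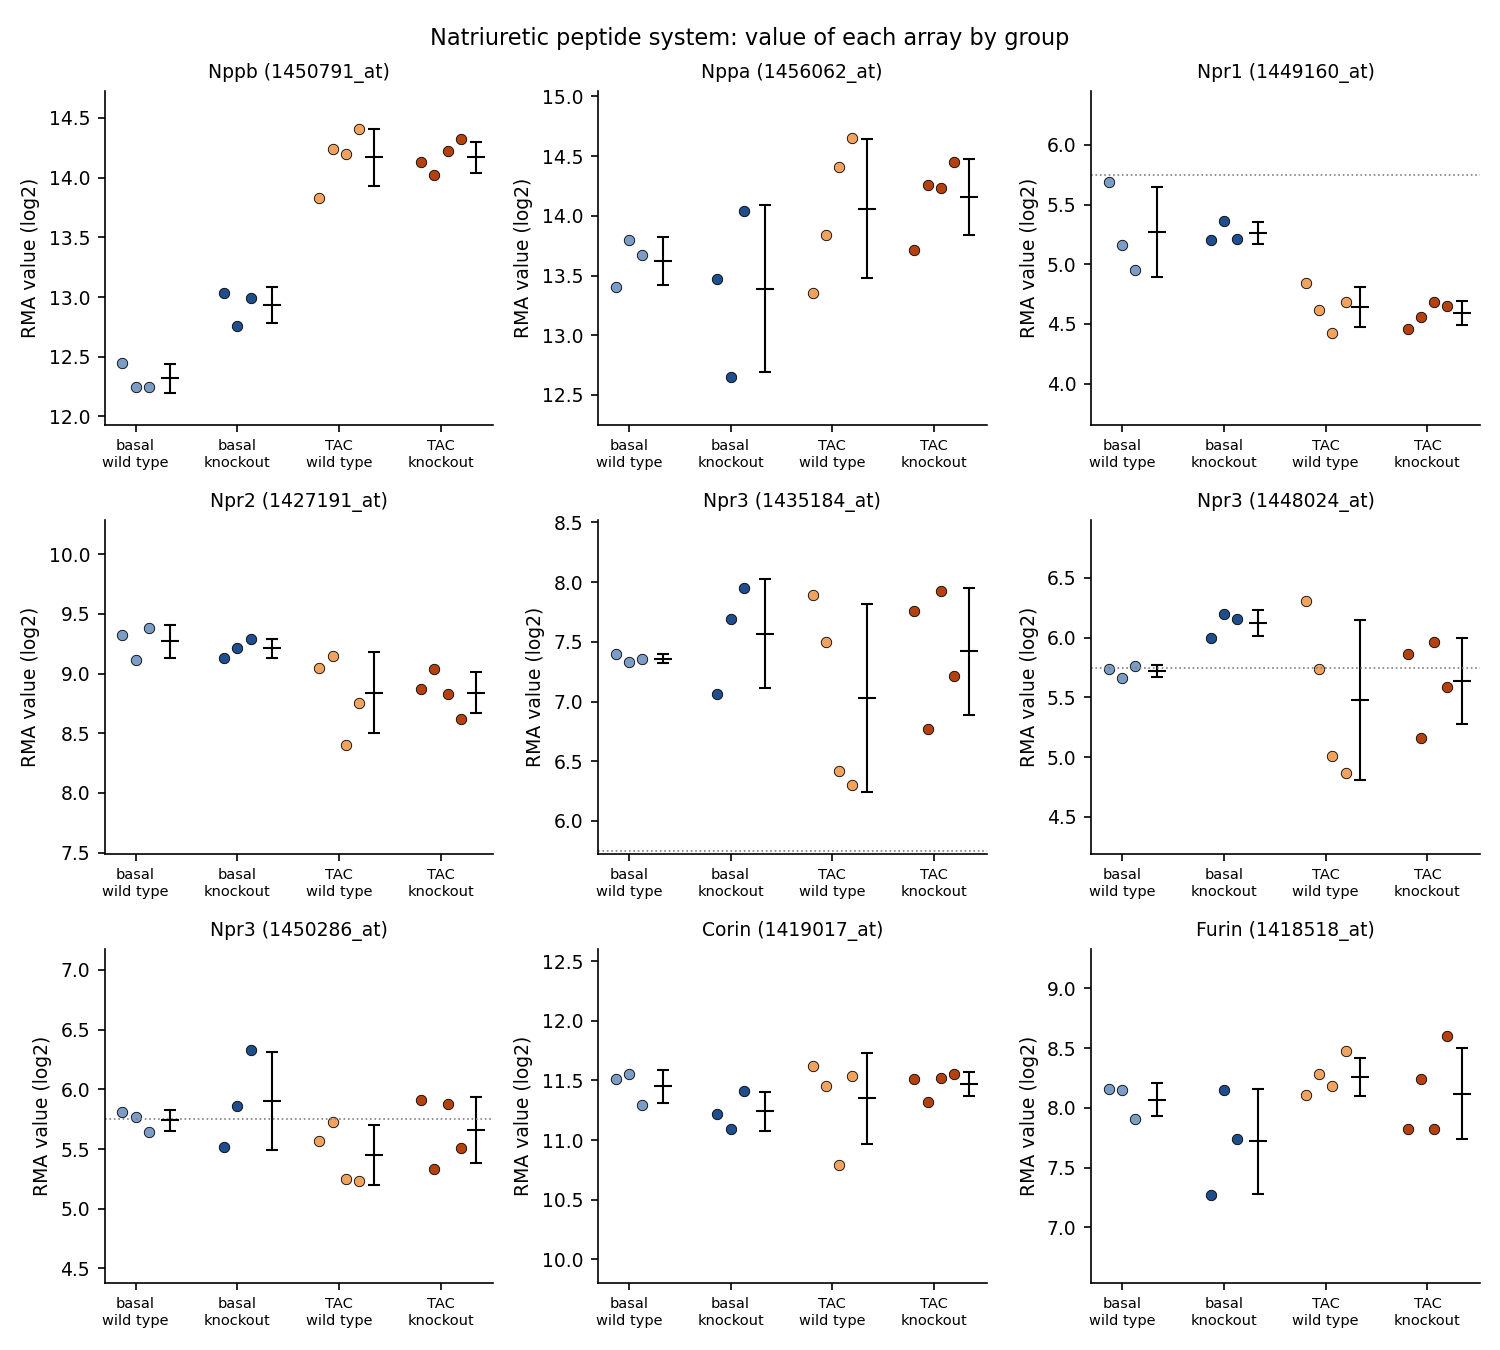
RMA value (log2) of each member probe set on every array, by group, with the group mean and SD as a black bar beside the points and the filter value of 5.75 as a dotted line where it falls in the panel; every panel spans the same log2 range. Nppb separates the TAC arrays from the basal arrays in both genotypes, while the arrays within a group scatter widely for Nppa and Npr3.

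Nppa, the ANP gene, varied more within groups than Nppb and was not called in any comparison. Basal wild-type arrays read 13.40, 13.80 and 13.67, and TAC wild-type arrays 13.35, 13.84, 14.41 and 14.65. Basal knockout arrays read 13.47, 12.65 and 14.04, and TAC knockout arrays 13.71, 14.26, 14.23 and 14.45. TAC and basal arrays overlapped in both genotypes: TAC wild-type array 1 was below every basal wild-type array, and basal knockout array 3 was above TAC knockout array 1. The difference after TAC was 0.44 (SE 0.33, 95% interval -0.26 to 1.14, adjusted p = 0.274 by limma) in wild type and 0.78 (SE 0.33, interval 0.07 to 1.48, adjusted p = 0.069) in the knockout. The knockout difference passed in 4 of 25 settings: with array weights, and without basal knockout array 3 (1.10, adjusted p = 0.025), TAC wild-type array 1 (0.78, adjusted p = 0.0409) or TAC knockout array 1 (0.93, adjusted p = 0.0453). The genotypes differed by -0.24 before TAC (interval -0.99 to 0.52) and by 0.10 after it (interval -0.55 to 0.75), and neither difference was called.

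The scatter of Nppa within the basal knockout group ran beside that of the atrial markers, the atria being the main site of its expression. In basal wild type array 1 was lowest in both (13.40 and 9.98). There array 2 had the highest Nppa value (13.80), but array 3 had the highest atrial mean (10.29). The part of atrial tissue in this scatter was not tested. Basal knockout array 2 had the lowest Nppa value of all (12.65) and the lowest basal atrial marker mean (7.91), and the atrial light chain gene Myl7 read 9.11 there. Basal knockout array 3 had the highest basal Nppa value (14.04), the highest atrial mean (10.67) and Myl7 at 13.56. After TAC the order was another. TAC wild-type array 4 had Myl7 at 5.24 and sarcolipin (Sln) at 4.27 and yet the highest Nppa value of all, 14.65, and TAC knockout array 2 had Myl7 at 5.21, Sln at 4.37 and Nppa at 14.26. Of the 9 atrial markers, 6 were lower after TAC in wild type (list median -2.42, median of all genes 0.02) and 4 in the knockout (-1.94 against -0.02). Over all genes 23.5% and 21.3% were called lower.

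With the mean of the atrial markers as a covariate, an alternative chosen after seeing the data, the Nppa difference after TAC was 0.52 (SE 0.46, adjusted p = 0.405 by limma) in wild type and 0.84 (SE 0.40, adjusted p = 0.137) in the knockout. The Nppb differences were 1.88 (SE 0.19) and 1.27 (SE 0.17) in that fit and both still passed. Npr2 in wild type no longer did, at -0.39 (SE 0.23, adjusted p = 0.217 by limma) against -0.43 (SE 0.16) without the covariate. In wild type the atrial means of the TAC arrays (6.40 to 9.05) lay wholly below those of the basal arrays (9.98 to 10.29). The covariate thus largely coincides with TAC, and calls lost or signs turned in that fit cannot be laid to atrial tissue.

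**Figure D2:**
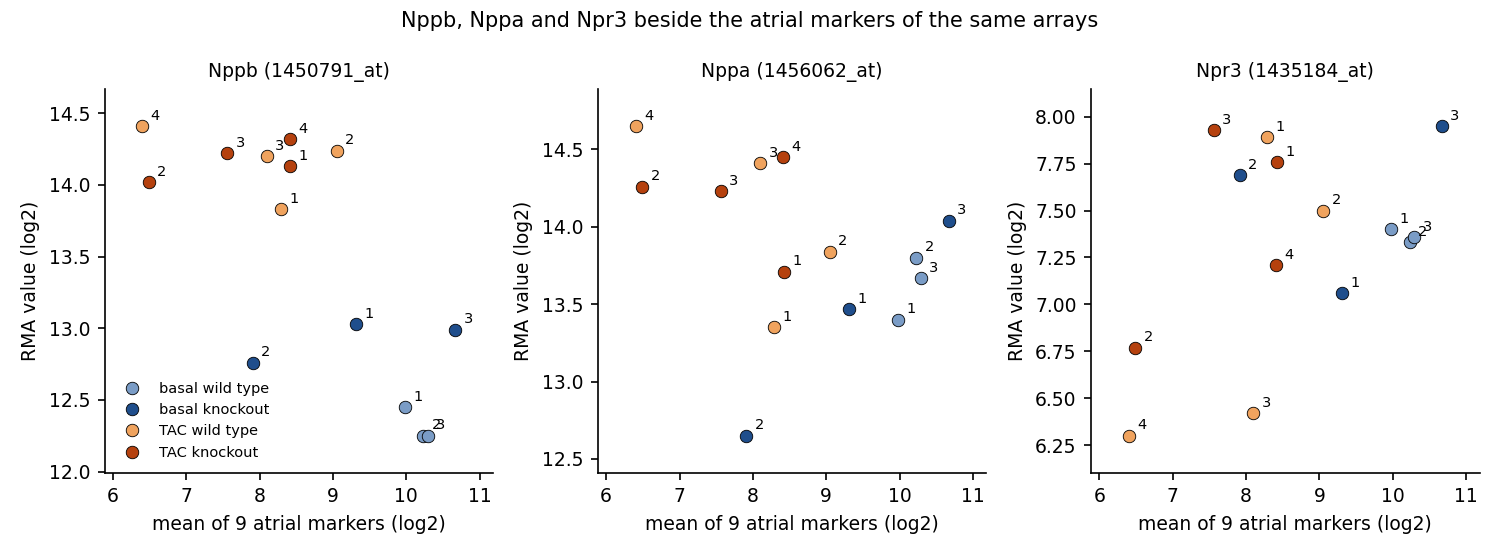
RMA value (log2) of Nppb, Nppa and 1 Npr3 probe set against the mean of the 9 atrial markers above the filter on the same array; each point is an array, coloured by group and numbered by replicate. The TAC arrays with the lowest atrial means (6.40 and 6.49) lie above every basal array for Nppb and Nppa and below every basal array for Npr3.

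Of the receptors, Npr2 was the only one above the filter that passed a test. Its basal wild-type arrays read 9.32, 9.11 and 9.38 and its TAC wild-type arrays 9.05, 9.15, 8.40 and 8.75. In the knockout the basal arrays read 9.13, 9.21 and 9.29 and the TAC arrays 8.87, 9.04, 8.83 and 8.62. In wild type the groups overlapped by 1 array (TAC array 2 was above basal array 2). In the knockout they did not overlap, as was the case for 52.4% of all probe sets. Npr2 fell by 0.43 in wild type (SE 0.16, 1.35-fold, adjusted p = 0.0401 by limma), and in the knockout the difference was -0.37 (SE 0.16, adjusted p = 0.0795).

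The Npr2 call sat at the threshold and held in 15 of 25 settings in wild type. It was lost without basal wild-type array 1 or 3, basal knockout array 2, TAC wild-type array 3 or 4, or TAC knockout array 3, with differences of -0.43 to -0.29 and adjusted p from 0.0502 to 0.124. The knockout difference passed without TAC wild-type array 3 (adjusted p = 0.029) and in 3 of 25 settings in all. Between genotypes Npr2 differed by -0.06 before TAC (interval -0.43 to 0.31) and by 0.00 after it (interval -0.32 to 0.33).

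Npr1, the guanylyl cyclase receptor of ANP and BNP, was read near the bottom of the scale and without the filter was lower after TAC. Its values were 5.69, 5.16 and 4.95 in basal wild type, 5.20, 5.36 and 5.21 in basal knockout, 4.84, 4.62, 4.42 and 4.68 in TAC wild type, and 4.46, 4.56, 4.68 and 4.65 in TAC knockout. No TAC array reached a basal array of its genotype. In a fit over all 45037 probe sets the adjusted p by limma was 0.00565 in wild type (difference -0.63, SE 0.15) and 0.00523 in the knockout (-0.67, SE 0.15). Such falls were frequent at this level: of the 18585 probe sets below the filter value on all arrays, 24.5% were called lower after TAC in wild type and 12.1% in the knockout, and the TAC arrays lay wholly below the basal arrays for 32.1% and 19.0%, so no fold is given for Npr1.

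Npr3, the clearance receptor, was not called in any comparison, and its arrays scattered most after TAC in wild type on its brightest probe set. Its probe set 1435184_at read 7.40, 7.33 and 7.36 in basal wild type, 7.06, 7.69 and 7.95 in basal knockout, 7.89, 7.50, 6.42 and 6.30 in TAC wild type, and 7.76, 6.77, 7.93 and 7.21 in TAC knockout. TAC wild-type arrays 3 and 4 and TAC knockout array 2 were low, and the groups overlapped in every comparison. The other Npr3 probe sets were lowest on the same arrays of each TAC group (5.01, 4.87 and 5.16 for 1448024_at, and 5.25, 5.23 and 5.33 for 1450286_at). Over the 14 arrays the probe sets, which read the same gene, correlated at 0.91, 0.85 and 0.74 in pairs.

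The differences of Npr3 after TAC were -0.34 (SE 0.37), -0.24 (SE 0.28) and -0.29 (SE 0.20) in wild type and -0.15, -0.48 and -0.25 in the knockout, with adjusted p by limma of 0.184 or more. With the atrial covariate they were 0.32, 0.21 and 0.08 in wild type and 0.32, -0.16 and 0.02 in the knockout, so that all but 1448024_at in the knockout turned sign, none of them called. The same 3 arrays had the lowest adipocyte marker means (5.54, 5.14 and 5.08, where the other TAC arrays had 5.97 to 7.67) and the lowest endocardial means (7.15, 7.11 and 7.39, where the others had 7.50 or more). Adipoq, Retn and Car3 are the 3 of 7 adipocyte markers above the filter. The part of these cells in the Npr3 values was not tested. Between genotypes the differences were 0.20, 0.40 and 0.16 before TAC and 0.39, 0.16 and 0.21 after it, none of them called. The 1448024_at groups did not overlap between the basal genotypes (5.74, 5.66 and 5.76 against 6.00, 6.20 and 6.16), nor between TAC and basal knockout. Neither difference passed (adjusted p = 0.987 and 0.184 by limma). Such a lack of overlap was shared by 13.0% and 52.4% of all probe sets.

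Corin and Furin did not pass the test in any comparison. Corin read 11.51, 11.55 and 11.29 in basal wild type, 11.22, 11.09 and 11.41 in basal knockout, 11.62, 11.45, 10.79 and 11.54 in TAC wild type, and 11.51, 11.32, 11.52 and 11.55 in TAC knockout. The groups overlapped in every comparison, and TAC wild-type array 3 was below every other array. Its differences after TAC were -0.10 in wild type (95% interval -0.47 to 0.27) and 0.23 in the knockout (-0.13 to 0.60).

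Furin read 8.16, 8.15 and 7.91 in basal wild type, 7.27, 8.15 and 7.74 in basal knockout, 8.11, 8.28, 8.18 and 8.48 in TAC wild type, and 7.82, 8.24, 7.82 and 8.60 in TAC knockout. Basal knockout array 1 was the lowest and the groups overlapped. Its differences were 0.19 in wild type (interval -0.27 to 0.65) and 0.40 in the knockout (-0.06 to 0.86, adjusted p = 0.14 by limma). Without basal knockout array 2 the knockout difference was 0.62 and passed, with an adjusted p of 0.0451.

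**Figure D3:**
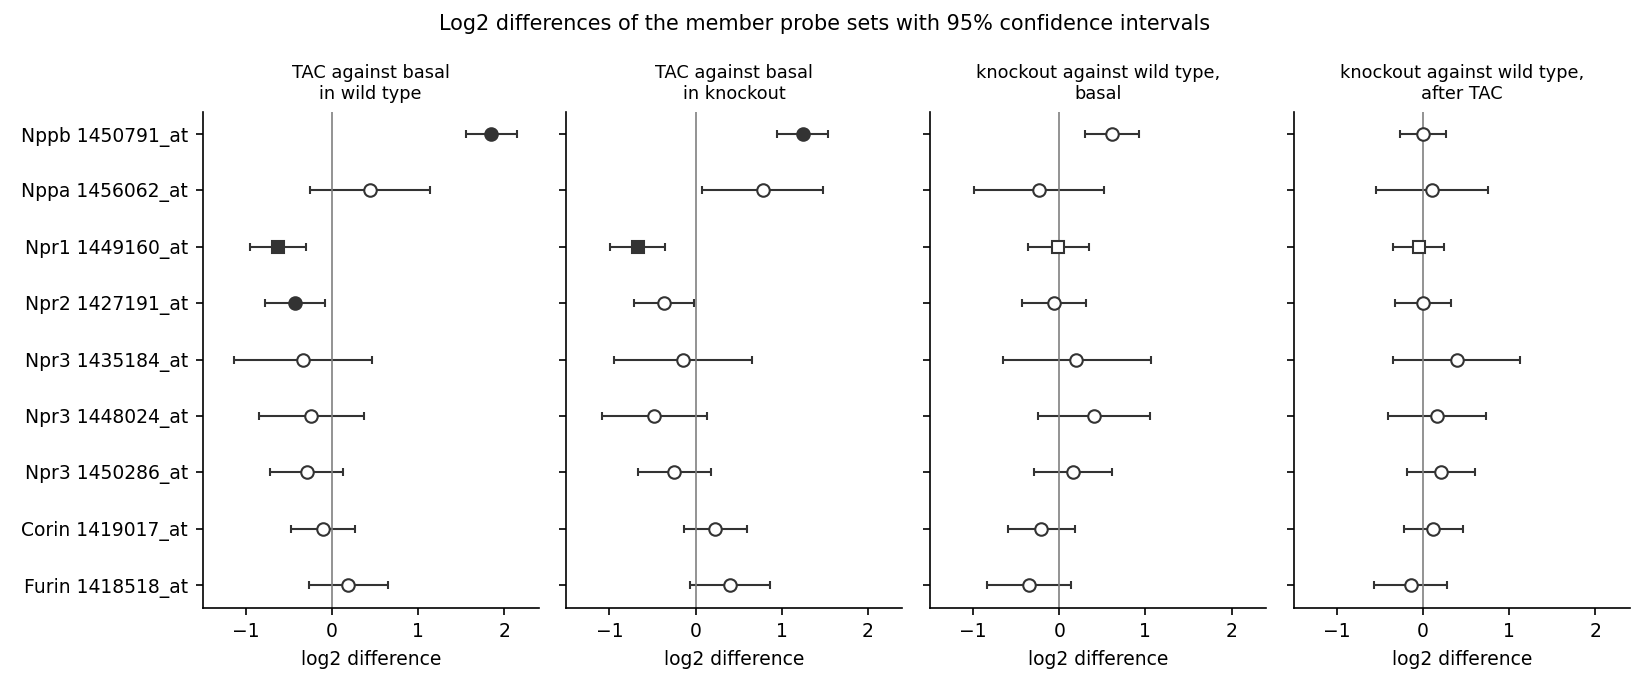
Log2 difference and 95% confidence interval of each member probe set (rows) in 4 comparisons (columns); filled symbols passed an adjusted p of 0.05 in limma, and squares mark Npr1, which was tested in the fit without the filter. Nppb is filled and to the right of 0 in both comparisons of TAC with basal, at 1.85 and 1.25, and no symbol is filled in the genotype comparisons.

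Over the 8 member probe sets above the filter, 1 was called higher (Nppb) and 1 lower (Npr2) after TAC in wild type, where 27.8% of all probe sets were called higher and 22.4% lower. In the knockout 1 was called higher and 0 lower, where 23.0% and 20.2% of all were. The median difference of the 8 was -0.17 in wild type (0.04 over all probe sets) and 0.04 in the knockout (0.00). Knockout and wild type differed in 0 of the 8 before TAC, 0 after TAC and 0 in the test of the difference, where 0.00815%, 0.0285% and 0% of all probe sets were called by limma, and an unadjusted p under 0.05 was reached by 1, 0 and 1 of the 8 against 5.70%, 8.18% and 7.90% of all.

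The remaining genes of the pathway were read by the brightest probe set of each gene above the filter. Unless stated otherwise, the members of each list named are those with the smallest p over the comparisons. After TAC, 26.7% of 12260 genes were called higher and 23.5% lower in wild type, and 22.4% and 21.3% in the knockout. None of these lists held a gene called by limma between genotypes before TAC, after TAC or in the test of the difference, where 0%, 0.00816% and 0% of all genes were called.

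Of 10 other processing genes above the filter among 14 listed, 0 rose and 5 fell in wild type and 0 rose and 3 fell in the knockout, with medians of -0.25 and -0.11. Pcsk6, a convertase known to activate corin, fell by 1.19 (SE 0.23, adjusted p = 0.00135 by limma) and by 1.06 (SE 0.23, adjusted p = 0.00345). Pcsk7, another convertase, fell by 0.46 and 0.38. Spint2, an inhibitor of serine proteases, fell by 0.43 and 0.44, although its other probe set (0.05 and -0.11) was not called. The fifth gene called in wild type, beside Pam, was Tmprss6, a relative of corin (-0.49, adjusted p = 0.0477), which passed in 6 of 23 settings. Leaving out basal wild-type array 2 or TAC wild-type array 3 left 3 calls in wild type, and leaving out basal knockout array 2 left 1 in the knockout, with Spint2 among those lost each time.

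Pam, the peptide-amidating enzyme and a main membrane protein of atrial secretory granules, read 11.09, 11.40 and 11.16 in basal wild type, 11.18, 10.72 and 10.50 in basal knockout, 10.62, 9.35, 9.23 and 9.55 in TAC wild type, and 10.72, 10.71, 10.82 and 10.51 in TAC knockout. It was low only on TAC wild-type arrays 2 to 4. Pam fell by 1.53 in wild type (SE 0.27, adjusted p = 0.000672 by limma), and the difference in the knockout was -0.11 (SE 0.27, adjusted p = 0.758). The test of the difference between genotypes gave 1.42 (SE 0.38), with an unadjusted p of 0.00227 and an adjusted p of 0.454, and so did not pass.

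For clearance, Mme (neprilysin, the membrane peptidase that degrades natriuretic peptides) fell by 0.82 in wild type (SE 0.19, adjusted p = 0.00337 by limma) and by 0.63 in the knockout (SE 0.19, adjusted p = 0.017). The knockout call was lost without basal knockout array 2. Mme was a dim probe set, with means of 5.97 and 5.94 before TAC and 5.15 and 5.31 after it. Ide, the insulin-degrading enzyme, was not called on its brightest probe set (0.34 and -0.41), although 1 of its 5 probe sets, 1441860_x_at, was called higher in wild type (1.05, adjusted p = 0.00145). Nppc, the gene of C-type natriuretic peptide, Dpp4, Mep1a and Mep1b were below the filter, and Ostn was not matched on the array.

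Downstream of the receptors, and beside the higher macrophage and fibroblast marker means, 5 of 16 genes of cyclic GMP signalling above the filter rose and 1 fell in wild type, and 5 rose and 0 fell in the knockout, with medians of -0.07 and 0.04. Prkg1, the cyclic GMP-dependent protein kinase, rose by 0.78 (SE 0.12, adjusted p = 0.000362 by limma) and 0.68 (SE 0.12, adjusted p = 0.00114), and its other probe set rose by 1.38 and 1.05. Ppp1r12a, the targeting subunit of myosin phosphatase, rose by 1.09 and 0.88. Of its 4 probe sets only 1429487_at (0.15 and 0.06) was not called. Vasp, a classic substrate of the Prkg1 kinase, rose by 0.68 and 0.67. The calcium-dependent phosphodiesterase Pde1a rose by 0.69 and 0.91, and Ppp1r14a, an inhibitor of myosin phosphatase, differed by 0.48 (adjusted p = 0.077) and rose by 0.72. Quantile normalization gave 3 lower calls in wild type and 2 in the knockout. Leaving out basal wild-type array 2 or TAC wild-type array 3 left 3 higher calls in wild type, with Pde1a lost in both cases.

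Among transcription factors and repressors known to act on Nppa and Nppb, 6 of 25 above the filter rose and 9 fell in wild type, and 2 rose and 6 fell in the knockout. The list median was 0.04 in wild type, which turned to -0.14 under quantile normalization, and -0.19 in the knockout. Tbx20, a T-box factor of the heart, rose by 1.78 (SE 0.19, adjusted p = 4.67e-05 by limma) and 1.04 (SE 0.19, adjusted p = 0.00136). Of its 3 probe sets only 1422219_a_at (0.41 and 0.51) was not called. Rest, a repressor of fetal cardiac genes, rose by 0.81 and 0.61, although its other probe set (0.27 and 0.27) was not called.

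Falls in the same list included Hdac5, a class IIa histone deacetylase that restrains Mef2 factors, which fell by 1.14 (SE 0.15, adjusted p = 0.000103 by limma) and 1.02 (SE 0.15, adjusted p = 0.000333). Nkx2-5, the homeodomain factor whose core motif is shown in the Nppa promoter above, fell by 0.79 and 0.66. Klf13 fell by 0.66 and 0.69, and its other probe sets were called lower as well, except 1456030_at in the knockout (-0.16). Named after their values were seen, because their families bind the GATA and M-CAT letters, Gata4 differed by 0.06 and -0.22 and Tead1 by 0.36 and 0.16 on the brightest probe sets, none of them called. Gata6 was not called on its brightest probe set (-0.14 and -0.12) but was lower on 1425463_at (-0.46, adjusted p = 0.0187, and -0.53, adjusted p = 0.0108). Klf15, chosen in the same way as the widest difference of the list, fell by 2.08 and 1.49.

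**Figure D4:**
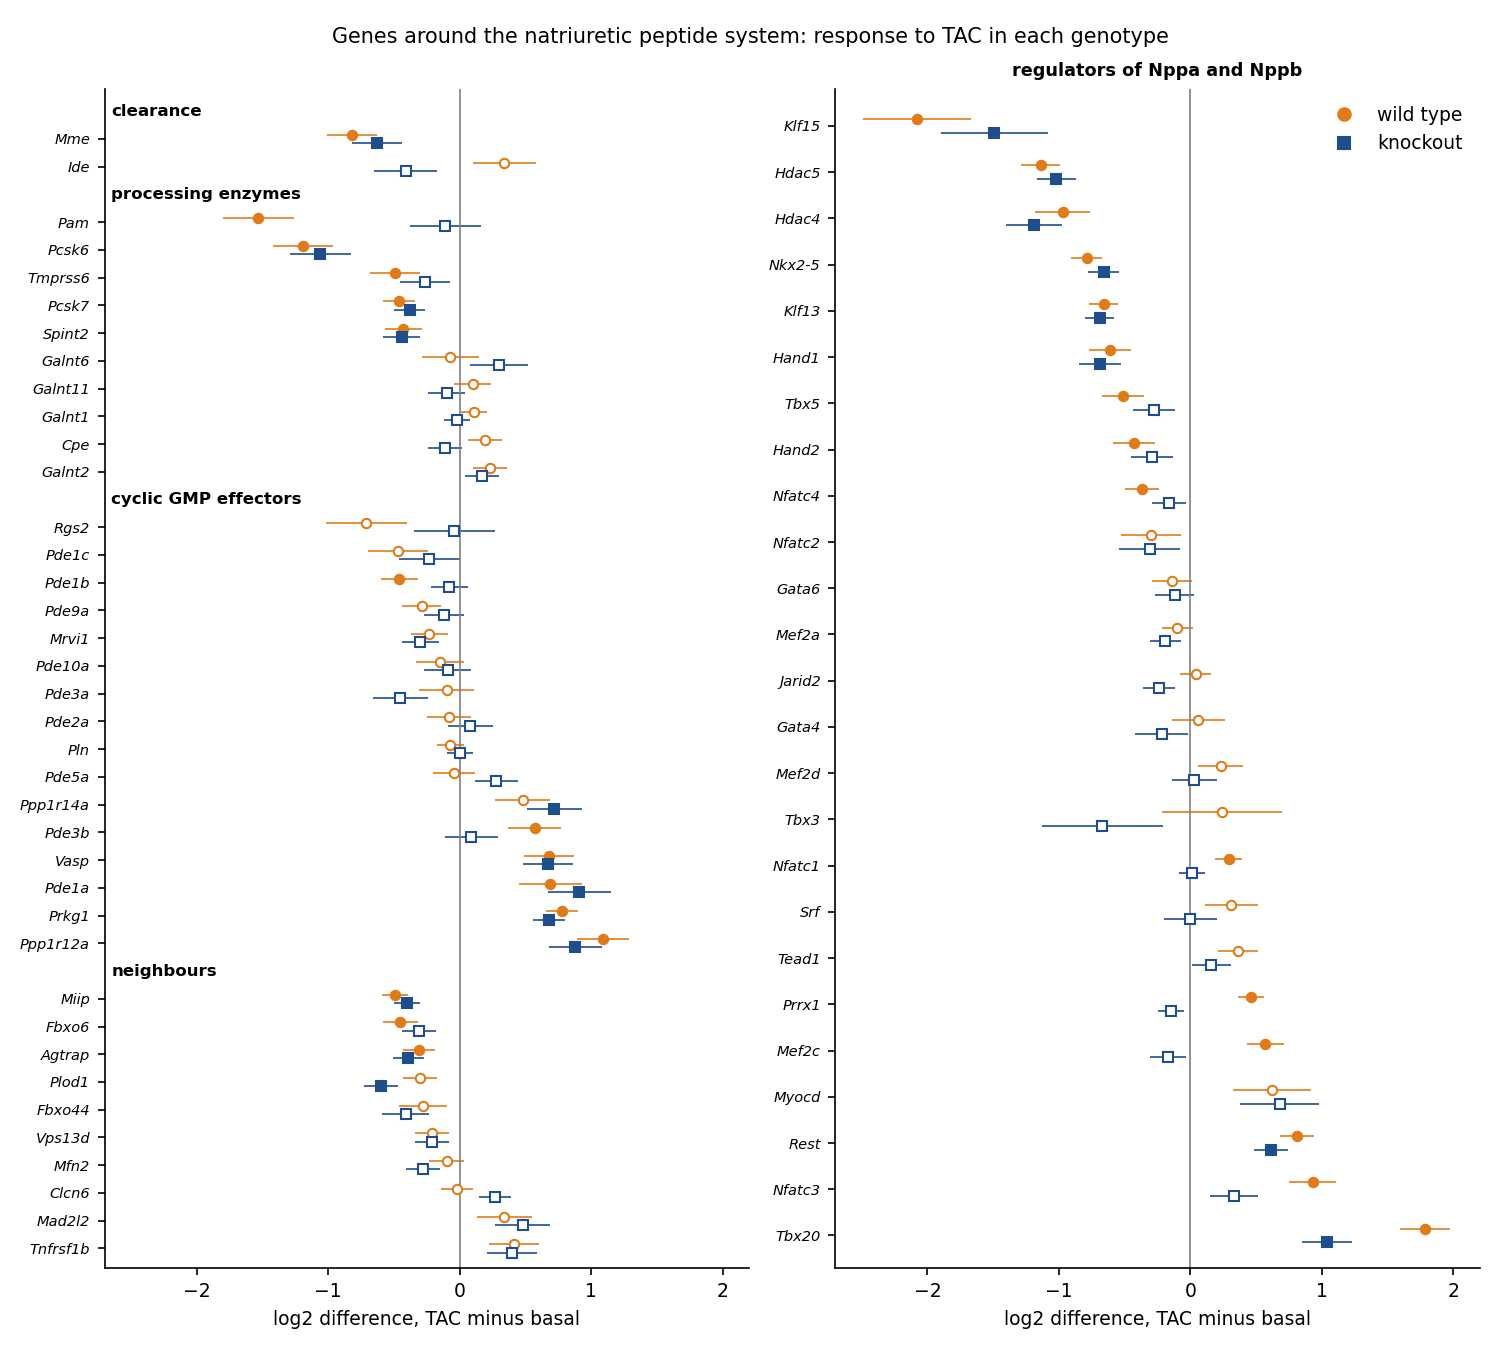
Log2 difference of TAC minus basal with its SE for each gene of the 5 lists, in wild type (circles) and knockout (squares); filled symbols passed an adjusted p of 0.05. Processing enzymes that are filled all lie left of 0, down to -1.53 for Pam in wild type, and Tbx20 lies at 1.78 and 1.04.

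Of the 2 ligand genes only Nppb was called after TAC, and the genes around them were read as well. Within 300 kb of the Nppb start RefSeq lists 18 genes, and 11 besides the 2 ligand genes had a probe set above the filter. In each genotype 1 of the 11 rose and 4 fell. Over all genes 26.7% were called higher and 23.5% lower in wild type, and 22.4% and 21.3% in the knockout. The counts were not tested against these shares. The riser was 2510039O18Rik (named, like Fv1, after its values were seen), by 0.97 (SE 0.19, adjusted p = 0.00132 by limma) in wild type and 0.67 (SE 0.19, adjusted p = 0.0129) in the knockout, the latter lost without basal knockout array 1. Clcn6, the chloride transporter gene next to Nppa and named for that place, differed by -0.02 and 0.27 and was not called. Miip fell by 0.49 and 0.40, and the retroviral restriction gene Fv1 by 0.59 and 0.91. Agtrap, whose product binds the angiotensin receptor, fell by 0.31 and 0.39. Plod1 differed by -0.30 (adjusted p = 0.0578 by limma) in wild type and fell by 0.60 (adjusted p = 0.00261) in the knockout. Its other probe set was called lower in wild type alone (-0.26). Fbxo6 fell by 0.45 (adjusted p = 0.0144) in wild type and differed by -0.31 (adjusted p = 0.072) in the knockout. Mad2l2 differed by 0.34 and 0.48 and was not called. The other probe sets of Miip (-0.29 and -0.15) and Agtrap (-0.07 and 0.24) were not called. Agtrap passed in wild type in 11 of 24 settings. In a list of 14 neighbours 3 of 10 fell and 0 rose in each genotype, and 5 and 6 fell under quantile normalization, as did 6 in the knockout without TAC wild-type array 3.

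**Figure D5:**
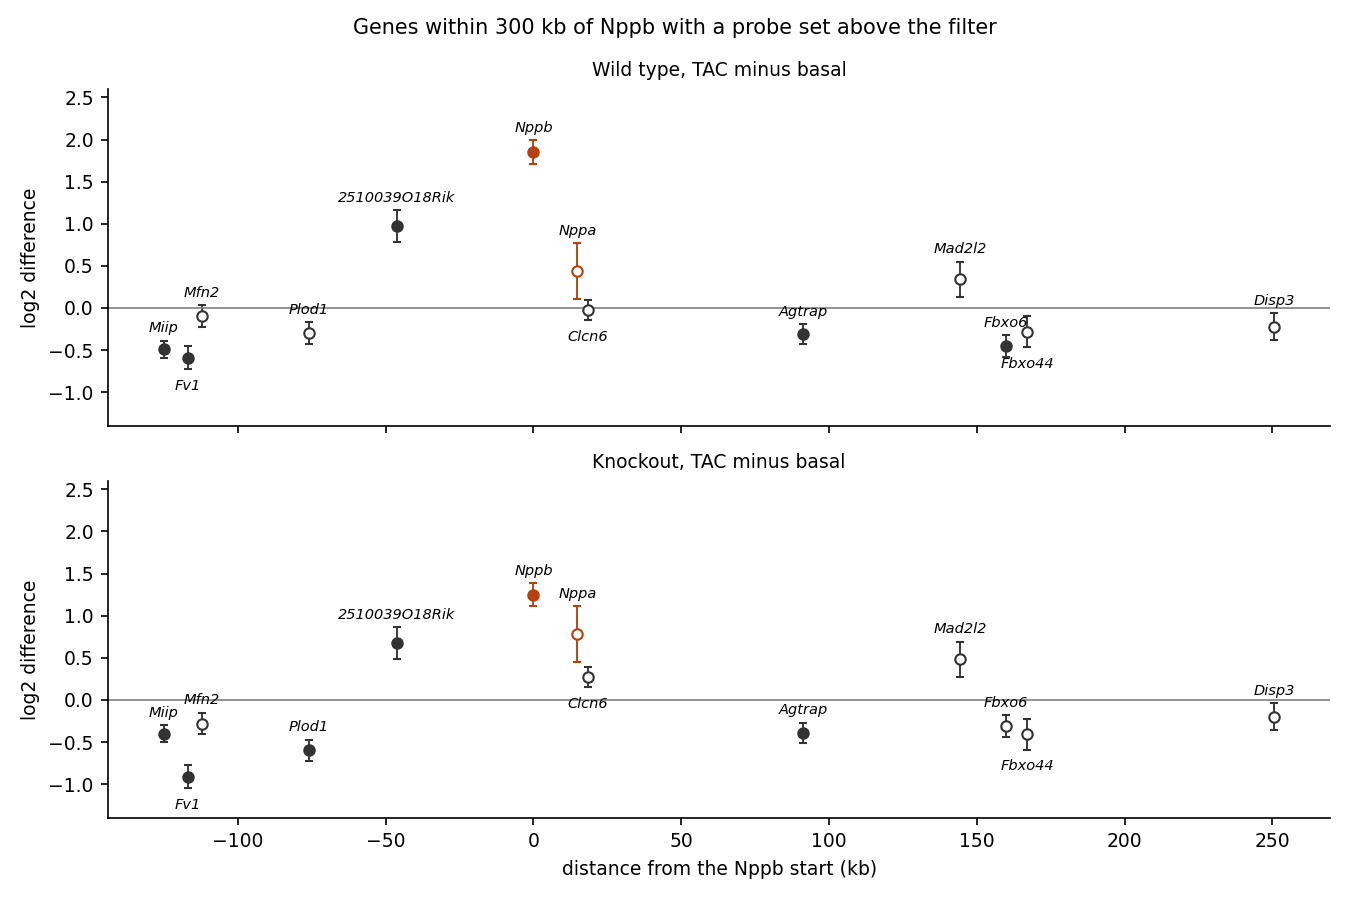
Log2 difference of TAC minus basal with its SE against the distance from the Nppb start (kb) for the genes within 300 kb that had a probe set above the filter, in wild type (top) and knockout (bottom); filled symbols passed an adjusted p of 0.05 and the 2 ligand genes are in red. Nppb stands highest in both panels, while Clcn6, beside Nppa, lies at -0.02 and 0.27.

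Other genes were ranked by likeness to each ligand gene, as the root mean square difference over the 14 arrays after each gene was centred on its own mean. Genes chosen in this way resemble the ligand gene's differences after TAC by choice, so those values are no separate result. The closest to Nppb were Tnfrsf12a (0.21), Gfpt1 (0.22), Zdhhc21 (0.23), Slamf9 (0.23) and Ro60 (0.23), where the median of all genes was 0.83. Tnfrsf12a, the receptor of the cytokine TWEAK, rose by 1.69 and 1.33 after TAC, and Gfpt1, the entry enzyme of hexosamine synthesis, by 1.67 and 1.25. The closest to Nppa were Bak1 (0.17), Bhlhe40 (0.25), Tgfb1i1 (0.25), Acbd3 (0.25) and Slc35b1 (0.26), with a median over all genes of 0.58. Bak1, a pore-forming protein of apoptosis, differed by 0.46 and 0.74 after TAC and was not called either.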

How the data were processed

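RNA of 14 left ventricle samples was measured on arrays, and the authors deposited RMA values on the log2 scale, per the submitters' processing notes. The notes state neither the RMA version nor whether basal and TAC arrays entered 1 normalization. Groups were taken from the sample titles. Probe sets were named from GEO's platform annotation: 34958 had 1 symbol, 932 several and 9160 none, and 64 controls were left out. Probe sets above the median of the table (5.75) on at least 3 arrays were fitted with limma 3.58.1 in R 4.3.3, with 1 mean per group and all 14 arrays in the fit, and adjusted by Benjamini-Hochberg over 24525 probe sets at a threshold of 0.05. The fit had 10 residual and 3.73 prior degrees of freedom, and was tested on simulated data. Array number limits the precision. Every member probe set was reported, and lists used the brightest probe set of a gene, with up to 5 genes named by the smallest p. Members and lists were chosen with earlier results of these data known.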

Additional observations from a re-analysis of the deposited data

How the results depend on the processing

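The count of members called after TAC in wild type was 2 of 8 and fell to 1 with arrays centred on their medians, with the arrays of the comparison alone, with array weights and with the atrial covariate added after seeing the data, and ranged from 1 to 2 when each array was left out. Npr2 was the call lost each time. In the knockout the count of 1 became 2 with the arrays of the comparison alone, 2 of 9 without the filter and 3 with array weights, and ranged from 1 to 2 when each array was left out. The genotype comparisons and the test of the difference had 0 members called in every setting. No member's call changed direction. With the replicate number as a block the count was 1 in wild type and 1 in the knockout. These values do not settle whether the numbers pair the samples. Deviations of same-numbered arrays correlated at -0.04, 0.07 and -0.01 in the basal groups and at 0.58, -0.02, -0.08 and 0.50 after TAC.

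Over all probe sets, 55.4% of the calls in wild type were higher, against 45.7% after quantile normalization, which moved the median difference from 0.04 to -0.06, and 65.1% after median centring (median 0.12). In the wild type 12300 calls became 6477 with the atrial covariate, and in the knockout 10593 became 6395. Because the atrial means and TAC went largely together, these lost calls cannot be laid to atrial tissue. Between genotypes after TAC, 7 calls became 2956 with array weights, 168 without TAC wild-type array 3 and 34 without TAC wild-type array 4; for the difference, 0 became 30, 1 and 12. Npr1 and the dimmer Npr3 probe sets lie close to the filter value or below it, and Nppb and Nppa close to the top of the scale, which limits the differences these arrays can show.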
